A study of Homo sapiens with 9 samples.

Results

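Huh-7, a human hepatocellular carcinoma line, was compared between cells that lack vtRNA1-1 and cells that carry it, through all genes expressed in polyadenylated RNA. The members of the comparison were the 3 libraries labelled vtRNA1-1 KO (here 1-1 KO) and the 3 labelled WT, that is 6 of the 9 libraries sequenced. The remaining 3 came from Huh-7 cells lacking vtRNA1-2 (1-2 KO) and served to show where the 1-1 KO cells differed from another knockout line, and also entered the fit, so that they share in the estimate of the spread behind each p-value. Fitted on the 6 libraries alone, 5654 genes were higher and 5368 lower in 1-1 KO than in WT. All 3 lines were untreated Huh-7 cells, harvested before confluency from medium with fetal bovine serum. The parental cells and the line lacking vtRNA1-1 came from another laboratory, whereas the line lacking vtRNA1-2 was derived from the parental cells by CRISPR/Cas9 and grown from a single cell. Whether 1-1 KO was a single clone is not given in the sources used here. Each line was 1 cell line sampled 3 times, so that the loss of the RNA cannot be told apart from other differences between the lines, and the p-values measure only the spread between libraries of a line, which may be technical. Of 60664 genes in the count table, 17207 passed the filter on low counts and were tested.

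Vault RNAs are short noncoding RNAs made by RNA polymerase III, and part of them is held in the vault, a large ribonucleoprotein particle of the cytoplasm. The polymerase reads their genes from control elements inside the transcribed part, called box A and box B. Of the human vault RNAs, vtRNA1-1 is known to bind the autophagy receptor p62. The sequences of the deleted RNA and of its nearest paralogs, which lie downstream of it, are shown, from GENCODE 44, to make clear how alike they are. Capitals mark box A, the first stretch, and box B, the second, on the transcribed strand.
VTRNA1-1: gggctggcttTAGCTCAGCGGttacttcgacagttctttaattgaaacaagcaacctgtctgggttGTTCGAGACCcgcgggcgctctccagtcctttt
VTRNA1-2: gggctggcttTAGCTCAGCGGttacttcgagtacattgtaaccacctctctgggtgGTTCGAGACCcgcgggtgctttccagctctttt
VTRNA1-3: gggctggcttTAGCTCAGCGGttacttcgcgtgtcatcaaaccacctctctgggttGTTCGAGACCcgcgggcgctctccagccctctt
VTRNA1-1 (ENSG00000199990) lies on the plus strand at chr5:140711275-140711373 of GRCh38 and is 99 nt long, 10 nt more than the 89 nt of VTRNA1-2 and VTRNA1-3. VTRNA1-2 shares its first 30 bases, and VTRNA1-3 its first 29, before the sequences part in the middle stretch between the boxes. These RNAs carry no poly(A) tail, and the libraries held almost none of them. A single count of VTRNA1-1 was found, in WT replicate 1, and the other 8 libraries held none, so that its deletion could not be checked here.

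The libraries held between 32384469 and 41782387 counts, and the 3 libraries of 1-1 KO lay between 40455537 and 41782387. The 10 most abundant genes of a library took between 4.50% and 5.84% of its counts. Defining genes of hepatocytes were abundant in both lines. In WT, ALB had 2532 ± 55.3, APOB 5460.4 ± 277 and HNF4A 262 ± 7.62 CPM (counts over the library's total as scaled by edgeR's TMM factors, mean ± SD, n = 3 throughout). In 1-1 KO these genes had 9427 ± 242, 5980.2 ± 129.6 and 248 ± 3.69 CPM. Of 37 markers of fibroblasts, endothelial cells, immune cells, cholangiocytes and neural cells, 21 were tested, 11 rose and 6 fell in 1-1 KO. Their summed level lay between 807 and 834 CPM in WT and between 1001 and 1022 CPM in 1-1 KO. The defining endothelial marker KDR and the B cell marker MS4A1 were at 0 in both lines, but other markers of their groups were not. Of 8 endothelial markers, 2 were at 0 in each line, and the 8 summed to 7.4 to 8.1 CPM in WT and 6.5 to 7.3 in 1-1 KO. Of 8 immune markers, 1 was at 0, and the 8 summed to 133 to 135 CPM in WT and 105 to 111 in 1-1 KO. The immune marker CD3D had 19.1 ± 0.609 CPM in WT and 3.53 ± 0.308 in 1-1 KO. The neural marker MAP2, a microtubule-binding protein, had 67.8, 64.5 and 65.1 CPM in the 3 WT libraries and 2.67, 2.89 and 2.87 in 1-1 KO, a fall of 4.55 ± 0.059 (SE) on the log2 scale. COL1A2 (log2 fold change 1.73) and PDGFRA (1.84), both used as fibroblast markers, rose, whereas COL1A1 did not pass the test (-0.12). The part of other cell types in the results was not tested. In bulk RNA, fewer cells that express a gene and less RNA per cell cannot be told apart.

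Between 1-1 KO and WT, 5600 genes were higher and 5315 were lower in 1-1 KO at an adjusted p under 0.05 (edgeR's quasi-likelihood test, Benjamini-Hochberg over all tested genes). The called share was thus 63.4% of all tested genes, of which 32.5% were higher and 30.9% lower, and counts within gene lists were read against these percentages. Most changes were small. The median called gene differed 1.41-fold, and 21.1% of the called genes differed by over 2-fold. Larger changes were mostly rises. Over 2-fold, 1617 genes (9.4% of those tested) were higher and 683 (3.97%) lower, over 4-fold 557 were higher and 183 lower, and over 16-fold 89 were higher and 45 lower. The 3 libraries of 1-1 KO lay beyond all 3 of WT in 11856 of the tested genes (68.9%). The median log2 fold change of all tested genes was 0.011, and the middle 50% of the genes lay between -0.31 and 0.41. Pairs of libraries of 1-1 KO differed from each other more than counting alone gives, by chi-square values per degree of freedom of 2.07 to 3.46, and pairs of WT by 5.03 to 10.4. Pairs of 1-2 KO gave 2.67 for replicates 2 and 3, but 15.1 and 16.1 for the pairs with replicate 1. No fit left out that library alone. Set directly against 1-2 KO, 11229 genes differed, and of the 10915 genes called against WT, 7210 (66.1%) also differed from 1-2 KO in the same direction. Both comparisons share the 1-1 KO libraries.

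**Figure D1:**
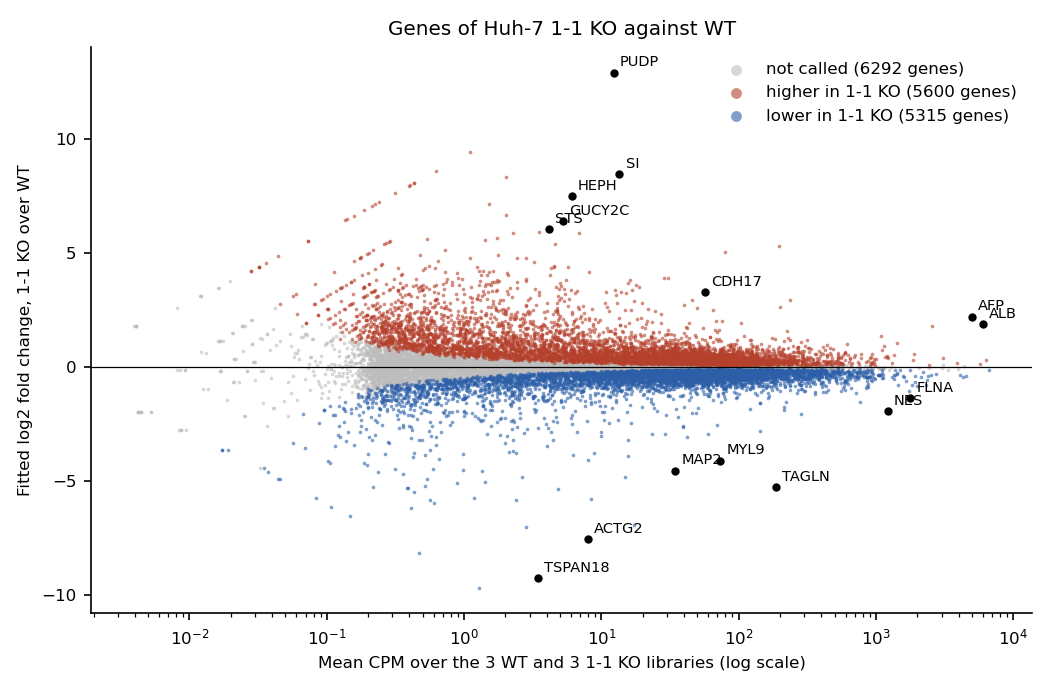
Fitted log2 fold change of 1-1 KO over WT against the mean CPM over the 6 libraries (log scale), 1 point per tested gene, with genes at an adjusted p under 0.05 in red (5600 higher) and blue (5315 lower). PUDP, which had no count in WT, lies highest, and ALB and AFP rise among the most abundant genes, whereas TAGLN, MYL9 and ACTG2 lie far below 0.

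The largest rises were dominated by genes that WT hardly expressed. The rises were ranked by fitted fold change among called genes that averaged at least 1 CPM and did not overlap between the lines. The 12 genes were PUDP, ESRP1, SI, CA4, HEPH, FAM20C, RBP2, GUCY2C, STS, MDGA2, NRXN3 and SLC7A8. Several of them are genes of the small intestine. SI encodes sucrase-isomaltase, a sugar-splitting enzyme of the intestinal brush border. Its counts were 3, 3 and 2 in the 3 WT libraries and 1198, 1150 and 1000 in 1-1 KO, which in CPM is 367-fold higher (95% exact interval 186 to 850, counting error only). RBP2, the retinol carrier of enterocytes, had 0, 3 and 1 counts in WT and 176, 144 and 181 in 1-1 KO, a ratio of 110 (42.6 to 404). CA4, a membrane-bound carbonic anhydrase, had 0, 1 and 0 counts in WT and 168, 166 and 168 in 1-1 KO, a ratio with a wide 95% interval of 78.6 to 17405. For these genes the libraries of each line stood close together, whereas the lack of overlap between the lines is set by the rule that chose them. ESRP1, an epithelial splicing factor, had no count in WT and 77, 97 and 100 counts in 1-1 KO, at least 23.2-fold higher when 3 counts in the smallest WT library are taken as the limit. SLC7A8, an amino acid transporter, had 0.201, 0.107 and 0.412 CPM in WT and 14.1, 14.1 and 12.6 in 1-1 KO. MDGA2 and NRXN3, which encode synaptic adhesion proteins, went from 0.110 to 6.97 and from 0.0719 to 4.47 CPM. Of the 12 genes, 11 were also higher in 1-1 KO than in 1-2 KO at an adjusted p under 0.05. CA4 was the exception, at 7.36, 6.43 and 7.04 CPM in the 3 libraries of 1-2 KO and lower in 1-1 KO than there by 0.78 on the log2 scale. The comparison with 1-2 KO reuses the 1-1 KO libraries by which the 12 genes were chosen, which favours such a result. Set against WT, 9 of the 12 genes were also higher in 1-2 KO and 0 were lower (28.2% and 26.2% of all tested genes). WT hardly expressed these genes, so that a lower level in 1-2 KO could hardly be called.

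PUDP and STS are neighbours on the short arm of the X chromosome. PUDP (ENSG00000130021, GRCh38 chrX:6667865-7148158), a phosphatase acting on pseudouridine monophosphate, had 0 counts in all 3 WT and all 3 1-2 KO libraries and 1078, 1023 and 946 in 1-1 KO, at least 258-fold higher. STS (chrX:7147237-7804358), steroid sulfatase, had 2, 5 and 6 counts in WT, 333, 360 and 324 in 1-1 KO and 3, 4 and 1 in 1-2 KO. The next tested gene, PNPLA4 (chrX:7898247-7927739), was added after its values were seen. This retinol ester hydrolase had 42, 59 and 31 counts in WT, 287, 250 and 303 in 1-1 KO and 18, 21 and 22 in 1-2 KO. The 3 genes therefore stood at their highest level in 1-1 KO in every library. The other genes tested within 4 Mb of PUDP moved in both directions, with 7 higher in 1-1 KO, 4 lower and 6 that did not pass the test. ANOS1, the next tested gene after PNPLA4, rose by 1.40 ± 0.32 from a low level, with 6, 10 and 4 counts in WT and 19, 21 and 21 in 1-1 KO, and GPR143, farther on, rose by 1.12 ± 0.19. Between PUDP and the end of the arm, the protein kinase gene PRKX fell by 0.42 ± 0.084. Among those that did not pass, GYG2, nearer the end of the arm, had 38.7 ± 1.43 CPM in WT and 38.8 ± 1.15 in 1-1 KO, and TBL1X, beyond ANOS1, had 52.7 ± 0.457 and 56.0 ± 1.48, though TBL1X passed the test without 1-1 KO replicate 3 (log2 fold change 0.11).

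Among the 12 largest falls were LINC02864, TSPAN18, ACTG2, GLP2R, MAGEC2, RNF144A, ETS1, FBN2, TAGLN, ACTA2 and APBB1IP. The long noncoding RNA LINC02864 had 113, 93 and 77 counts in WT and none in the 3 libraries of 1-1 KO, at least 35.2-fold lower. TSPAN18, a tetraspanin, had 259, 245 and 237 counts in WT and a single count over the 3 libraries of 1-1 KO, which was 846-fold lower (151 to 33453). Both were lost almost completely, and the lack of overlap between the lines is again set by the rule that chose the falls. The transcription factor ETS1 fell from 2.46, 2.59 and 1.87 CPM in WT to 0.0709, 0 and 0.0490 in 1-1 KO, and RNF144A, a ubiquitin ligase, from 16.3, 16.3 and 16.4 to 0.236, 0.413 and 0.221. FBN2, a fibrillin of the extracellular matrix, had 8.67, 10.2 and 9.26 CPM in WT and 0.189, 0.267 and 0.221 in 1-1 KO, but 384, 427 and 424 in 1-2 KO, so that the knockout lines lay on opposite sides of WT. All 12 genes were also lower in 1-1 KO than in 1-2 KO, with log2 differences between -10.8 and -2.36. That comparison reuses the 1-1 KO libraries, whose low values chose these genes, which favours such a result. In 1-2 KO, 7 of these genes were higher and 4 lower than in WT (28.2% and 26.2% of all tested genes).

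A threshold on levels gave a short list of genes switched between the lines. With at most 3 counts in every WT library and at least 1 CPM in every 1-1 KO library, 10 genes appeared in 1-1 KO, namely RBP2, SI, GABRA4, ENPP5, FAM20C, ESRP1, CA4, ADAMTS5, PUDP and HEPH. In the other direction 6 genes disappeared, namely FSTL5, SEMA5A, TSPAN18, ETS1, GLP2R and LINC02864. GABRA4, a subunit of the GABA-A receptor, had 3, 2 and 1 counts in WT and 121, 143 and 82 in 1-1 KO. ADAMTS5, a protease that cleaves aggrecan, had none in WT and 59, 51 and 44 in 1-1 KO, at least 13-fold higher. SEMA5A, a semaphorin, had 62, 72 and 55 counts in WT and 2, 1 and 3 in 1-1 KO, a ratio of 36.0 (16.2 to 99.2). FSTL5, a secreted follistatin-like protein, had 50, 40 and 39 counts in WT, 0, 0 and 2 in 1-1 KO and 441, 475 and 456 in 1-2 KO. No gene of either group overlapped between the lines, which the threshold itself sets. The number of genes that appeared depended on 1 library, being 17 without WT replicate 1.

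Genes of the contractile apparatus fell together. Smooth-muscle actins, myosin chains and actin-binding proteins build stress fibres, and many of these genes are driven by the serum response factor SRF with its actin-regulated cofactors MRTF-A and MRTF-B, through a promoter element called the CArG box. Of 59 listed genes, 55 were tested, 41 fell (74.5%, against 30.9% of all tested genes) and 8 rose. Their median log2 fold change was -0.58, against 0.011 for all tested genes, and -0.69 after the median of each gene's own 5-Mb bin was subtracted, a step chosen after seeing the data. Against 1-2 KO, 41 of the 55 genes were lower in 1-1 KO and 7 higher (33.1% and 32.2% of all tested genes).

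TAGLN, transgelin of smooth muscle, had 374, 347 and 365 CPM in the 3 WT libraries and 10.00, 8.63 and 9.83 in 1-1 KO. MYL9, the regulatory light chain of smooth-muscle myosin, had 139.8, 135 and 140.0 CPM in WT and 8.20, 7.66 and 8.16 in 1-1 KO. ACTG2, gamma smooth-muscle actin, had 17.0, 14.5 and 15.9 CPM in WT and 0.0473, 0.146 and 0.0490 in 1-1 KO. In each of these genes the lines were far apart and the libraries of a line close together. TAGLN fell by 5.25 ± 0.064 (SE), MYL9 fell by 4.11 ± 0.049 and ACTG2 fell by 7.56 ± 0.20 on the log2 scale (edgeR adjusted p 5.1e-16, 5.1e-16 and 1.4e-12). ACTA2, alpha smooth-muscle actin, had 2.96, 3.15 and 2.22 CPM in WT and 0.0709, 0.0486 and 0.123 in 1-1 KO. The cardiac actin ACTC1 had 13, 8 and 11 counts in WT and none in 1-1 KO, at least 4.03-fold lower. Of 15 actins and myosins, 12 fell and none rose. The cytoskeletal actin ACTB, at 4016 ± 346 CPM in WT and 3830.2 ± 57.9 in 1-1 KO, did not pass the test (-0.068 ± 0.066), whereas ACTG1 fell by 0.58. CNN1, calponin, fell from 28.4 ± 0.414 to 3.11 ± 0.124 CPM, and the tropomyosins TPM1, TPM2, TPM3 and TPM4 fell by 0.87, 1.19, 0.99 and 0.51 on the log2 scale.

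Of 15 genes of focal adhesion and actin crosslinking, 13 fell and 2 rose. Filamins A and C, which crosslink actin filaments, fell from 2551 to 995 CPM (FLNA) and from 461 to 109.7 CPM (FLNC). The focal adhesion proteins ZYX (zyxin) and PDLIM7 fell by 1.77 and 1.84 on the log2 scale, FHL2 fell by 2.32 and VCL (vinculin) by 0.99. The genes of the factors themselves fell too. SRF fell by 0.72 ± 0.056, MRTFA by 0.33 ± 0.067 and MRTFB by 0.20 ± 0.043. The factors of the Hippo pathway went the other way, with YAP1 (0.32), WWTR1 (0.76) and TEAD1 (0.17) higher. Of the genes listed as their targets, CCN1 fell by 0.48, AMOTL2 rose by 0.31, and CCN2 (-0.071) and ANKRD1 (0.034) did not pass the test.

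**Figure D2:**
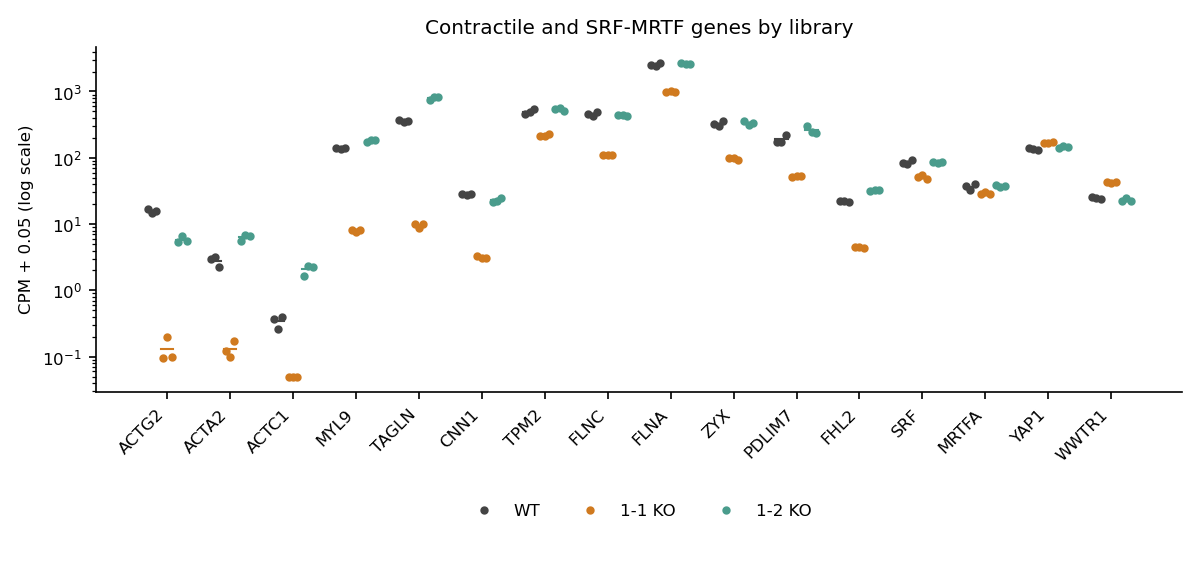
CPM plus 0.05 (log scale) of 16 contractile and SRF-MRTF genes in the 3 libraries of each line, with a short line at the mean. TAGLN stands near 362 CPM in WT and 9.49 in 1-1 KO, and the points of 1-1 KO lie lowest for all genes shown except YAP1 and WWTR1.

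The CArG box was searched in the promoters of this list, which holds genes known as SRF targets. RefSeq promoters (GRCh38.p14, 250 bases before to 50 after a start) were at hand for 46 of the 55 tested genes, and 14 of them (30.4%) held a CArG box on either strand, against 1.60% of 11871 tested genes with a promoter and 1.16% of all 17183 promoters. Of the 14 genes, 13 fell and SMTN rose, while 41 of the 55 tested genes of the list fell. Over all 190 tested genes whose promoter held the box, 86 fell, 56 rose and 48 did not pass the test. Stretches of 3 of these promoters are given 5′ to 3′ on the gene's strand, because the genes fell by different amounts (log2 fold changes of -7.56 for ACTG2, -2.32 for FHL2 and -1.36 for FLNA). Capitals mark the CArG boxes.
ACTG2, chr2:73892873-73892969, plus strand: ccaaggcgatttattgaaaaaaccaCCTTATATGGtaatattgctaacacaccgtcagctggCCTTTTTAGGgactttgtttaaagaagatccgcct
FHL2, chr2:105438580-105438639, minus strand: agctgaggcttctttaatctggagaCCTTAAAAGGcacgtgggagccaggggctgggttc
FLNA, chrX:154374694-154374753, minus strand: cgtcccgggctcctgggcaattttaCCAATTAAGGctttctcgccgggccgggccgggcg
The ACTG2 stretch held 2 boxes and the others 1. A match of letters is a description of the sequence and does not show that SRF was bound there.

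A set of genes typical of the intestinal epithelium rose. Enterocytes carry digestive enzymes, transporters and structural proteins in a brush border of microvilli, and fetal liver and liver tumours are known to express some of these genes. Of 55 listed genes, 45 were tested, 29 rose (64.4%, against 32.5% of all tested genes) and 6 fell, with a median log2 fold change of 1.05. Of the 29, 23 rose over 2-fold. Against 1-2 KO, 28 of the 45 were higher in 1-1 KO and 5 lower. The filter on low counts left out 10 of the 55 members but passed genes that WT hardly expressed, such as SI and HEPH. Such genes could only rise, and they add to the share and the median. With at least 10 counts required in every library, which tests fewer genes, 19 members rose.

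Among the enzymes, DPP4, dipeptidyl peptidase, had 283, 297 and 282 CPM in WT and 541, 538 and 526 in 1-1 KO. MGAM, maltase-glucoamylase, which splits starch beside SI, moved against it, from 9.77, 10.3 and 10.7 CPM in WT to 3.8, 3.4 and 3.92 in 1-1 KO. Of 12 tested hydrolases, 7 rose and 1, MGAM, fell. Among the transporters, HEPH, the ferroxidase hephaestin that helps iron leave the enterocyte, rose from 2, 3 and 2 counts in WT to 526, 511 and 468 in 1-1 KO. FABP1, the fatty acid-binding protein of liver and intestine, had 32.8 ± 0.336 CPM in WT and 102 ± 6.27 in 1-1 KO, and SLC6A19, a neutral amino acid transporter, 7.13 ± 1.08 and 16.7 ± 0.953. The peptide transporter SLC15A1 and the iron transporter SLC11A2 fell, by 1.08 and 0.35 on the log2 scale.

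CDH17, the liver-intestine cadherin, had 10.5, 10.9 and 10.4 CPM in WT, 103, 103 and 105 in 1-1 KO and 23.1, 25.3 and 25.5 in 1-2 KO. Every 1-1 KO library lay above every library of the other lines. The mucin MUC13 rose by 2.17 ± 0.089. VIL1, villin, which bundles the actin of microvilli, fell from 984 ± 32.6 to 445 ± 4.56 CPM, so that the best known structural gene of the brush border went against the list. The transcription factors CDX2, ISX and HNF4G rose by 3.28, 2.01 and 0.87, and ELF3 and KLF5 by 0.61 and 0.77. CDX2, a homeobox factor of the intestinal epithelium, had 1.86, 1.76 and 2.44 CPM in WT and 19.0, 20.3 and 19.0 in 1-1 KO. GUCY2C, the receptor for guanylin, went from 0.126, 0.133 and 0.0951 CPM to 10.3, 11.2 and 9.44, whereas GLP2R, the receptor for glucagon-like peptide 2, went from 5.70, 5.95 and 5.10 to 0.0473, 0.0486 and 0.0245. The second receptor was thus lost while the first appeared.

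**Figure D3:**
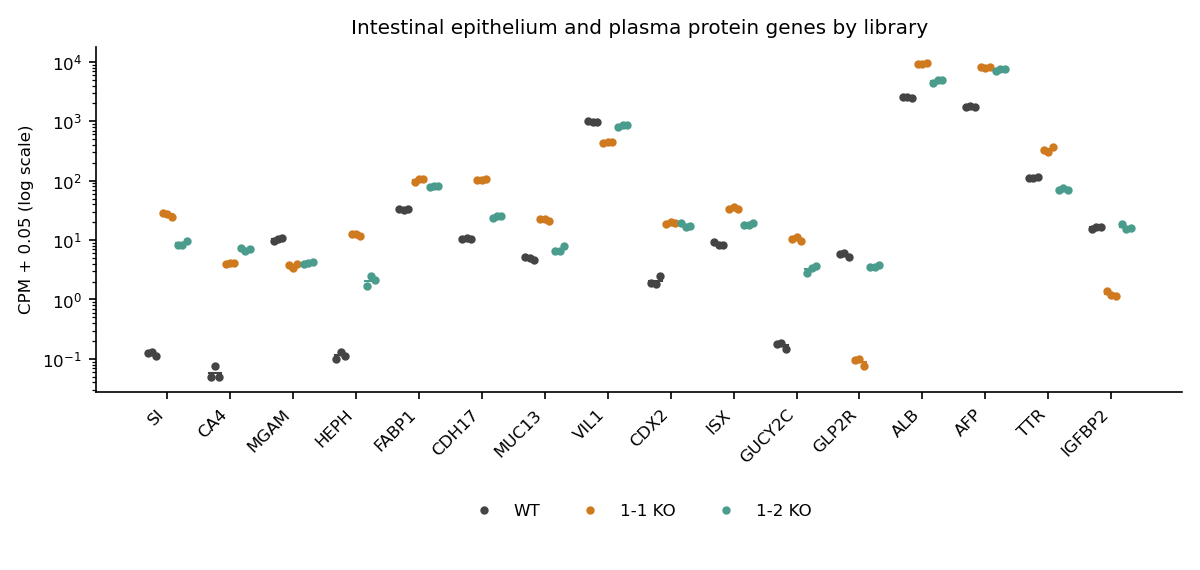
CPM plus 0.05 (log scale) of 12 genes of the intestinal list and of ALB, AFP, TTR and IGFBP2 in the 3 libraries of each line, with a short line at the mean. SI, HEPH and GUCY2C stand near the bottom in WT and highest in 1-1 KO, VIL1, GLP2R and IGFBP2 are lowest in 1-1 KO, and AFP reaches 8167 CPM in 1-1 KO and 7419 in 1-2 KO.

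Plasma proteins of the liver rose more often than they fell. ALB, albumin, the main plasma protein of adults, had 2526, 2589 and 2479 CPM in the 3 WT libraries and 9283, 9292 and 9707 in 1-1 KO. AFP, alpha-fetoprotein, its fetal relative in the same gene cluster on chromosome 4, had 1729, 1837 and 1710.0 CPM in WT and 8132, 8024 and 8346 in 1-1 KO. Every 1-1 KO library lay above every WT library, and the rises were 1.90 ± 0.045 and 2.22 ± 0.043 on the log2 scale. Directly against 1-2 KO, ALB was higher in 1-1 KO by 0.99 ± 0.044 and AFP by 0.14 ± 0.042. Of 43 tested carriers, protease inhibitors and acute-phase proteins, 23 rose (53.5%) and 11 fell (25.6%), with a median of 0.38. TTR, the carrier of thyroxine and of retinol-binding protein, rose from 111 ± 2.35 to 336 ± 27.2 CPM, and GC, the vitamin D-binding protein, from 25.8 ± 0.833 to 84.5 ± 1.14. IGFBP2, which binds insulin-like growth factors, fell from 15.3, 16.9 and 16.9 CPM to 1.32, 1.14 and 1.10. AGT, angiotensinogen, fell by 1.08, and the orosomucoids ORM1 and ORM2 by 0.95 and 0.99 on the log2 scale, though these neighbouring genes are nearly identical and may share reads.

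Of 13 tested apolipoproteins, 10 rose and none fell, among them APOA1 (0.84 ± 0.049) and APOE (0.52). MTTP, which loads lipid onto APOB, rose by 0.58, and LIPC, hepatic lipase, by 0.86, whereas the HDL receptor SCARB1 fell by 0.49 and endothelial lipase LIPG by 1.24. Of 48 tested coagulation and complement genes, 22 rose (45.8%) and 14 fell (29.2%), with a median of 0.096. The 3 fibrinogen chains FGA, FGB and FGG rose by 0.54, 0.39 and 0.46, and all 3 were below WT in 1-2 KO (-0.97, -0.24 and -0.93). CD55, which protects cells from complement, rose from 2.00 ± 0.143 to 10.2 ± 0.0454 CPM. PLG, plasminogen, had 36, 45 and 39 counts in WT and 0, 1 and 1 in 1-1 KO.

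Transcription factors that define hepatocytes changed by small amounts, and 2 of them differed by over 2-fold. Of 34 tested, 16 rose (47.1%) and 7 fell (20.6%), with a median of 0.18. HNF4A did not pass the test (-0.080 ± 0.041), nor did PROX1 (0.035). CEBPA, which drives liver genes in adults, rose from 106 ± 7.19 to 163 ± 4.51 CPM, and GATA6 from 13.1 ± 0.627 to 26.9 ± 0.280. FOXA1 fell by 0.72, while FOXA3 (0.39) rose. ONECUT2 fell by 0.66 and ONECUT1 rose by 0.43. ZHX2, known in the mouse as a repressor of AFP after birth, rose by 0.68 ± 0.054, and in 1-2 KO stood at -0.34 against WT. NR1H4, the bile acid receptor FXR, fell by 0.57, whereas PPARA, a receptor for fatty acids, rose by 0.61.

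Metabolic genes moved in both directions. Of 45 tested genes of cholesterol and bile acids, 24 rose (53.3%) and 10 fell (22.2%). Of 22 enzymes and regulators of cholesterol synthesis, 13 rose and 4 fell. HMGCS1, which makes hydroxymethylglutaryl-CoA for this pathway, had 782, 789 and 779 CPM in WT and 1479, 1468 and 1526 in 1-1 KO, a rise of 0.93 ± 0.039 on the log2 scale. IDI1, FDPS and PMVK, which act between it and squalene, fell by 0.58, 0.50 and 0.70 on the log2 scale. AKR1D1, a reductase of bile acid synthesis, rose by 1.99, and the uptake transporters SLCO1B1, SLCO1B3 and SLCO2B1 by 1.92, 2.67 and 1.00. BAAT, which conjugates bile acids, and ABCC2, which exports conjugates into bile, fell by 1.10 and 0.81.

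Of 77 tested drug metabolism genes, 36 rose (46.8%) and 20 fell (26.0%), with a median of 0.25. Against 1-2 KO, 46 of them were higher in 1-1 KO and 16 lower. ALDH1A1, which makes retinoic acid, rose from 819 ± 12.9 to 1386 ± 20.5 CPM. UGT2B15, which adds glucuronic acid to steroids, rose from 0.970 ± 0.187 to 5.07 ± 0.0239 CPM, although close copies in its gene family may share reads. AKR1B10, an aldose reductase abundant in liver tumours, fell from 29.4, 30.3 and 28.6 CPM to 2.15, 1.58 and 2.08, and AKR1C2 from 212 ± 4.16 to 71.7 ± 3.25. CYP2B6 fell by 1.49, and CYP4V2 and CYP2J2 rose by 1.54 and 0.54.

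Of 37 tested glycolysis and gluconeogenesis genes, 14 rose and 12 fell, and of 52 genes of fatty acid synthesis, storage and oxidation, 22 rose and 18 fell, with medians of -0.00050 and 0.0028. PKM, the pyruvate kinase of proliferating cells, fell from 2521 ± 70.5 to 1434 ± 35.8 CPM, and PFKL, the liver phosphofructokinase, rose from 61.6 ± 4.71 to 113 ± 0.510. ME1, malic enzyme, fell from 316 ± 7.80 to 157 ± 1.27 CPM. ACSL3 and ACSL5, which activate fatty acids, fell by 0.71 and 1.69, while ACSL1 and ACSL4 rose by 0.51 and 0.25. Of 55 genes of amino acids, the urea cycle and one-carbon metabolism, 24 rose (43.6%) and 16 fell (29.1%). PHGDH, the first enzyme of serine synthesis, rose by 0.94, CPS1 and ASS1 of the urea cycle by 0.82 and 0.83, and FAH and BHMT2 fell by 1.26 and 1.51.

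Most ribosomal protein genes fell by a small amount. Of 76 tested, 53 fell (69.7%) and 5 rose (6.58%), with a median of -0.28. Without WT replicate 1, 2 rose, and 3 rose without WT replicate 2 or without 1-1 KO replicate 3. RPLP0, of the ribosomal stalk, had 1831, 1812 and 1805 CPM in WT and 1049.8, 1040.1 and 1067 in 1-1 KO, and RPS23 had 1086, 1115 and 1100.0 and 559, 570.1 and 600.1. Both fell by under 2-fold (0.79 and 0.93 on the log2 scale). Against 1-2 KO, 40 were lower in 1-1 KO and 14 higher. In 1-2 KO against WT, 39 of the 76 were also lower and 5 higher (26.2% and 28.2% of all tested genes). Of 13 genes encoded by mitochondrial DNA, 11 fell and none rose. MT-CYB, cytochrome b, fell by 0.65 ± 0.087 and MT-CO1 by 0.43 ± 0.079. WT replicates spread more for these transcripts than 1-1 KO replicates did, as for MT-CO1 with 5618, 4858 and 4223 CPM in WT and 3789, 3459 and 3682 in 1-1 KO. Of the 75 tested nuclear respiratory chain genes, 27 rose and 27 fell.

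Among the stress lists, more NRF2 targets fell than rose. NRF2 drives genes that renew glutathione and NADPH, and of its 21 tested targets and partners 12 fell and 3 rose. GCLM and GCLC, which make glutathione, fell by 0.88 and 0.52. NQO1 (0.021) and HMOX1 (-0.032) did not pass the test, and the genes of NRF2 itself (NFE2L2, 0.50) and of its inhibitor KEAP1 (0.56) rose. Of the 21 targets and partners, 14 were lower and 3 higher in 1-2 KO than in WT (26.2% and 28.2% of all tested genes). Directly against 1-2 KO, 9 of them were higher in 1-1 KO and 9 lower. Of 37 genes of the unfolded protein and integrated stress response, 10 rose (27.0%) and 14 fell (37.8%), against 32.5% and 30.9% of all tested genes. The chaperones CANX and PDIA4 fell by 0.62 and 0.58, while HSPA5 (-0.068), DDIT3 (-0.064) and ATF3 (-0.018) did not pass the test. Of 26 p53 targets, 9 rose and 12 fell, but 10 rose and 8 fell with scaling by library size alone, and 9 rose and 8 fell when at least 10 counts were required in every library. CDKN1A, the best known of them, did not pass the test (0.074 ± 0.087).

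More interferon genes rose than fell, and more NF-kB targets fell than rose. Of 46 tested genes of interferon response and antigen presentation, 24 rose (52.2%) and 6 fell, with a median of 0.32. HLA-C, a class I antigen-presenting molecule, rose from 3.41 ± 0.719 to 14.4 ± 1.19 CPM, and PSMB8, a subunit of the immunoproteasome, from 1.42 ± 0.196 to 8.08 ± 0.725. HLA genes are alike and vary between people, and their reads may be misplaced. Not all members moved that way. IFIT1 (0.100) did not pass the test, and IFI35 and IFITM2 fell by 1.90 and 1.29. In 1-2 KO against WT, 29 of the 46 were higher and 6 lower (28.2% and 26.2% of all tested genes). Against 1-2 KO, 14 of the 46 were higher in 1-1 KO and 16 lower, and OAS3, an enzyme that senses double-stranded RNA, stood at 8.49 ± 0.221 CPM in WT, 21.1 ± 1.41 in 1-1 KO and 48.5 ± 0.874 in 1-2 KO.

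Of 27 tested NF-kB targets, 15 fell (55.6%) and 7 rose (25.9%), with a median of -0.29. The chemokines CXCL1, CXCL2, CXCL3, CXCL5, CXCL6 and CXCL8, which attract neutrophils and lie together on chromosome 4, all fell, by 0.82 (CXCL3) to 1.14 (CXCL6) on the log2 scale. CXCL8 had 123, 141 and 128 CPM in WT, 58.4, 61.5 and 60.2 in 1-1 KO and 181, 204 and 203 in 1-2 KO. ICAM1, an adhesion molecule for leukocytes, fell from 234 ± 3.39 to 92.9 ± 2.41 CPM. CCL20 rose by 0.15. Against 1-2 KO, 20 of the 27 were lower in 1-1 KO and 6 higher. Of 27 tested hypoxia genes, 15 rose (55.6%) and 5 fell. NDRG1, a gene induced at low oxygen, rose from 34.5, 35.5 and 34.9 CPM to 108, 111 and 108, and LOX, lysyl oxidase, from 15.9 ± 0.291 to 35.4 ± 0.850, whereas BNIP3 fell by 0.39 and CA9 did not pass the test (-0.50).

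WNT ligands act through Frizzled receptors on beta-catenin. Of 40 tested WNT genes, 20 rose and 11 fell (27.5%), or 7 fell without 1-1 KO replicate 1. The listed receptors FZD1, FZD2, FZD4, FZD5, FZD6, FZD7 and FZD8 rose, FZD7 the most of them by 1.51 ± 0.063, and FZD3 did not pass the test (0.036). WLS, the carrier that WNT ligands need for secretion, fell from 17.1, 19.0 and 16.6 CPM to 2.43, 2.26 and 2.65. The target LGR5 fell by 0.55, while CCND1, cyclin D1, rose by 0.76. Of 49 tested TGF-beta, activin and BMP genes, 22 rose (44.9%) and 12 fell (24.5%). The ligand TGFB2 fell from 48.1 ± 0.622 to 18.4 ± 0.679 CPM and INHBB from 52.4 ± 2.78 to 22 ± 1.36, whereas BMP4 and INHBE rose by 1.49 and 1.46. BMPR2, a BMP receptor, rose by 0.95.

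Most listed junction genes rose and most listed mesenchymal genes fell. Of 28 tested junction genes, 19 rose and 6 fell, and of 13 mesenchymal genes, 10 fell and 2, FN1 and NT5E, rose. EPCAM, an adhesion molecule of epithelia, had 36.0, 35.7 and 34.7 CPM in WT and 104.5, 103 and 103.8 in 1-1 KO, and 34.2, 34.2 and 35.8 in 1-2 KO. PKP2 and DSP of the desmosome rose by 0.91 and 0.63, and CLDN7 of the tight junction from 2.17 ± 0.404 to 8.72 ± 0.667 CPM. CDH1, E-cadherin, rose by 0.48 and CDH2, N-cadherin, by 0.26. VIM, vimentin, fell from 844, 845 and 868 CPM to 452, 452 and 456, CD44 from 14.2 ± 0.166 to 5.06 ± 0.196, and ZEB1, a repressor of CDH1, by 0.54. AXL, a receptor kinase, had 78, 70 and 58 counts in WT and 3, 1 and 6 in 1-1 KO. FN1, fibronectin, rose by 0.33 from 5601 ± 117 CPM. Against 1-2 KO, 20 of the 28 junction genes were higher in 1-1 KO and 6 lower, and of the 13 mesenchymal genes 4 were higher and 8 lower. In 1-2 KO against WT, 7 of the junction genes were higher and 14 lower, and 3 of the mesenchymal genes were higher and 8 lower. The separate fibroblast and stellate markers did not fall in 1-1 KO, where 4 of 7 tested rose and 0 fell.

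The genes named in the lists follow a rule on adjusted p and role, with exceptions. GC, ORM2, APOB, APOE, FGG, PLG, FDPS, PMVK, SLCO1B1, SLCO1B3, SLCO2B1, CYP2B6, CYP2J2, CYP4V2, ACSL1, ACSL4, MT-CYB, GCLC, GCLM, HMOX1, NQO1, NFE2L2, HSPA5, CDKN1A, HLA-C, PSMB8, IFIT1, CCL20, CA9, BMP4, LGR5, CDH1, CDH2, CLDN7, DSP, ZEB1, AXL, the CXCL genes other than CXCL5 and CXCL8, and the FZD genes other than FZD5 and FZD7 were chosen after their values were seen, as were GYG2, TBL1X, ANOS1, GPR143 and PRKX.

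ALB and AFP gained the most CPM of all tested genes. The 10 genes with the largest gain in CPM were ALB, AFP, NTS, FN1, SPTBN1, COL5A2, FGB, TF, HMGCS1 and ALDH1A1, which together held between 1.75% and 1.81% of the counts in WT and between 4.09% and 4.14% in 1-1 KO. NTS, the peptide neurotensin, had 1098, 1235 and 1081 CPM in WT and 4079, 3991 and 3921 in 1-1 KO, against 877, 921 and 895 in 1-2 KO. SPTBN1, a spectrin under the membrane, rose from 922 ± 5.89 to 1912 ± 51.7 CPM, and COL5A2, a chain of type V collagen, from 611 ± 34.4 to 1551 ± 22.1. All 10 were also higher in 1-1 KO than in 1-2 KO, a comparison that reuses the 1-1 KO libraries by which they were chosen. The 10 genes with the largest loss were FLNA, NES, MT-CO2, MT-CO1, NPM1, MYH9, PKM, MT-CO3, RPL4 and ACTG1, with between 2.98% and 3.32% of the counts in WT and between 1.98% and 2.07% in 1-1 KO. NES, the intermediate filament nestin, had 2070.4, 1789 and 1930.2 CPM in WT and 493, 490.1 and 521 in 1-1 KO. NPM1, nucleophosmin of the nucleolus, fell from 2951 ± 74.2 to 1701 ± 51.7 CPM. Of these 10, 7 were also lower than in 1-2 KO, and MT-CO2, MT-CO3 and PKM did not pass that test, which reuses the 1-1 KO libraries too.

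The change was uneven by gene type and along the genome. Of 13659 tested protein-coding genes, 4875 rose and 4677 fell. Long noncoding RNAs rose more often than they fell (500 against 247 of 1811, or 27.6% and 13.6%). Processed pseudogenes, whose reads may in part belong to their parent genes, fell more often (243 against 93 of 1066, or 22.8% and 8.72%). Each of these shares was below that of all tested genes (32.5% higher and 30.9% lower). By chromosome, the median log2 fold change was lowest on chromosomes 15 (-0.21), 10 (-0.20) and 1 (-0.19) and highest on chromosomes 21 (0.35), 19 (0.33) and 14 (0.29). On chromosome 1, 820 of 1688 tested genes were lower and 298 higher, and on chromosome 21, 106 of 169 were higher and 10 lower. The 3 libraries of 1-1 KO gave close medians, between 0.35 and 0.38 on chromosome 21 and between -0.193 and -0.184 on chromosome 1. DNA copy number was not measured in these data.

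**Figure D4:**
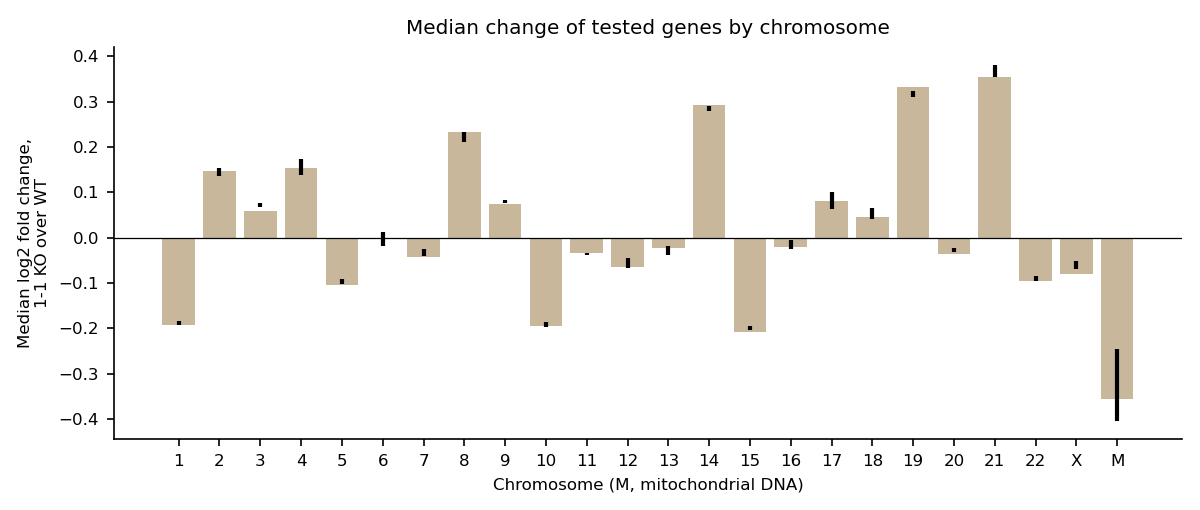
Median log2 fold change of 1-1 KO over WT for the tested genes of each chromosome (bars) and of mitochondrial DNA (M), with a vertical line from the lowest to the highest median of the 3 libraries of 1-1 KO, each set against the mean of WT. Chromosomes 21, 19 and 14 stand highest at 0.35, 0.33 and 0.29, and the median of mitochondrial genes is -0.35.

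Within chromosomes, 333 bins of 5 Mb held at least 20 tested genes. Over 75% of the genes were lower in 4 of them and higher in 11. On the long arm of chromosome 1, 71 of 91 genes between 150 and 155 Mb (78.0%) were lower, with a median of -0.63. Between 155 and 160 Mb, 56 of 79 (70.9%) were lower, with a median of -0.67. The second of these bins holds NES, whose fall of 1.94 exceeded the shift of its neighbours. On chromosome 2, 41 of 49 genes between 95 and 100 Mb were higher and none lower, with a median of 0.74. On chromosome 21, 36 of 44 genes between 40 and 45 Mb were higher, with a median of 0.69. In 1-2 KO the medians of these bins against WT were -0.27 and -0.12 on chromosome 1, 0.17 on chromosome 2 and 0.28 on chromosome 21. The rule for named genes did not cover bins, and other bins differed in direction between the knockout lines. On chromosome 20, 21 of 25 genes between 40 and 45 Mb were lower (median -0.44), but the median in 1-2 KO was 0.21. On chromosome 7, 25 of 30 genes between 20 and 25 Mb were higher (median 0.61), but the median in 1-2 KO was -0.18.

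Around VTRNA1-1, 33 genes within 500 kb were tested, 29 of which rose and none fell in 1-1 KO, against 32.5% and 30.9% of all tested genes. Of 17 genes outside the protocadherin clusters, 14 rose, with a median of 0.31. ZMAT2, the nearest tested gene at 4589 bases, had 83.6, 81.2 and 82.3 CPM in WT and 123, 126 and 132 in 1-1 KO, a rise of 0.62 ± 0.040. CD14, a co-receptor for lipopolysaccharide, rose from 1.34 ± 0.0453 to 2.86 ± 0.103 CPM, and the histidine-tRNA ligases HARS1 and HARS2 by 0.19 and 0.20. Protocadherins, adhesion proteins encoded in clusters, rose in 13 of 14 tested genes, with a median of 1.35. PCDHB5 had 19.7, 19.4 and 21.5 CPM in WT and 44.9, 47.9 and 45.4 in 1-1 KO, and PCDHB10 had 0.126, 0.213 and 0.190 and 2.06, 1.75 and 2.35. The rise was not confined to this window. Of 75 tested genes in the 5-Mb bin between 140 and 145 Mb, which holds VTRNA1-1, 48 rose and 7 fell. The median of the bin against WT was 0.51 in 1-1 KO and 0.44 in 1-2 KO. In 1-2 KO, the 33 genes within 500 kb had a median of 0.30 against WT, and the 14 protocadherins 0.61. Genes of these clusters resemble each other and may share reads.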

How the data were processed

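Polyadenylated RNA of 9 Huh-7 libraries, 3 per line, was sequenced by the authors as stranded paired-end reads, mapped to GRCh38 with STAR and counted per gene with featureCounts. The deposited values are raw counts per gene, with no normalization, and the strand setting of the counting is not given in the sources used here. Libraries held 32384469 to 41782387 counts in WT and 1-1 KO.

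Genes were kept with edgeR's filterByExpr (minimum count 10, minimum total 15), scaled by TMM and tested with the quasi-likelihood test of edgeR 4.0.16 in R 4.3.3, fitted on all 9 libraries so that the lines share 1 estimate of the spread, with Benjamini-Hochberg adjustment over 17207 genes and a threshold of 0.05. The common biological coefficient of variation was 5.55%. Gene positions and types came from GENCODE 44, whose identifiers matched 60463 of 60664 genes, and promoters from RefSeq (GRCh38.p14). Limits of a count of 0 used 3 counts, and count ratios carry exact 95% intervals, which cover counting error only. On simulated counts of 16865 genes for this comparison, 79 of 100 genes changed by 1 on the log2 scale and 56 of 100 changed by 0.5 were called, with 15 false calls. No other genes were changed in the simulation, whereas 63.4% of the tested genes were called in the data. Its rates therefore need not hold for the data.

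The comparison, its gene lists and the rule for named genes were chosen with earlier results of these data known. The rule named the 12 largest rises and falls by fold, the 10 largest gains and losses in CPM, the 3 members with the smallest adjusted p per list and direction, members of roles with at most 10 tested genes, all hepatocyte factor, intestinal and contractile genes, the vault RNA genes with neighbours within 500 kb, and genes switched between the lines. The 12 by fold were taken among called genes with a symbol, a mean of at least 1 CPM and no overlap between the lines. Alternatives were DESeq2 1.42.0, other scalings, filters and thresholds, a replicate block, and leaving out each WT or 1-1 KO library in turn. Some genes are not reported here.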

Additional observations from a re-analysis of the deposited data

How the results depend on the processing

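Genes higher and lower in 1-1 KO numbered 5600 and 5315 as reported, 4924 and 4998 under DESeq2's Wald test, 5478 and 5480 under edgeR's test with DESeq2 size factors, 6211 and 4713 with scaling by library size alone, and 5191 to 5610 and 4854 to 5125 when 1 WT or 1-1 KO library was left out, so that which direction held more genes depended on the scaling. Of 720 counts recomputed, 701 stayed within 1.5 times the reported count. Genes changed over 2-fold numbered 844 higher and 377 lower, and intestinal genes that rose 19, when at least 10 counts were required in every library, which tests fewer genes. Ribosomal protein genes that rose numbered 3 under DESeq2's Wald test, 8 with library size alone, 2 at an adjusted p under 0.01, and 2 to 5 when 1 library was left out. WNT genes that fell numbered 7 with library size alone and at an adjusted p under 0.01, and 7 to 10 when 1 library was left out, and p53 targets that fell numbered 6 at an adjusted p under 0.01. The cause of these shifts was not tested. Genes that appeared in 1-1 KO numbered 32 from 0.5 CPM, 60 with a limit of 10 counts, and 10 to 17 without 1 library, and those that disappeared 20 from 0.5 CPM, 3 from 2 CPM and 14 with a limit of 10 counts. With a replicate block, 5443 genes were higher and 5153 lower. Same-numbered WT and 1-1 KO libraries deviated with correlations of -0.022, -0.0041 and -0.032, so the numbers did not pair the libraries. Of 220 named genes, APOB lost its call without WT replicate 1 or 3 and without 1-1 KO replicate 2 or 3, and CCN2, HNF4A, HSPA5, PROX1 and TBL1X, not called as reported, passed the test under at least 1 other fit.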

Other observations

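Several large changes fell outside the lists and the rule for named genes, and were chosen after their values were seen. COL2A1, the chain of cartilage collagen, had 10.2, 8.37 and 10.6 CPM in the 3 WT libraries, 379, 400.3 and 374 in 1-1 KO and 43.4, 41.8 and 46.6 in 1-2 KO, and COL14A1, a collagen that binds to fibrils, had 5.08, 4.11 and 4.6, 155, 158 and 150.3 and 4.04, 4.04 and 4.17. Both were highest in every 1-1 KO library, with log2 fold changes of 5.31 ± 0.071 (SE) and 5.07 ± 0.060 against WT. TIMP1, an inhibitor of matrix metalloproteinases, fell from 30.4, 26.7 and 29.2 CPM in WT to 0.851, 1.12 and 1.08 in 1-1 KO, and stood at 8.95, 9.84 and 10.7 in 1-2 KO. TMSB4X, thymosin beta 4, which binds actin monomers, fell from 233, 260.3 and 259 CPM to 37.3, 34.9 and 35.3 and stood at 333, 346 and 324 in 1-2 KO. TMSB4X was on no list of contractile genes, and its fall was 2.81 ± 0.050 on the log2 scale against WT.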
